A study of Arabidopsis thaliana with 16 samples.

Results

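In Arabidopsis thaliana seedlings, 70 of the 33602 genes in the deposited table fell to at most 0.5 of their starting level within 12 h in each of 2 lines, a line with an inducible form of the stomatal regulator SPEECHLESS (SPCH) and wild type. The genes were chosen by their values: the ratio of group means, 12 h over 0 h, was at most 0.5 in both lines, the mean at 0 h was at least 20 normalized counts in both lines, and in each line the highest 12 h library lay below the lowest 0 h library. In all, 74 genes met these values, and 4 of them (AT3G10040, LBD41, PHI-1 and AT2G20670) were left out by name. The rule also names AT1G80440, MKK9 and RVE1, which did not meet it, with wild-type ratios of 0.549, 0.524 and 0.506. Because the change from 0 to 12 h chose these genes, it is described here without a test, and only the differences between the lines are tested.

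The series holds 16 libraries of polyadenylated RNA from whole seedlings, 4 in each of 4 groups. The inducible line is homozygous for ATML1pro:GR-SPCH1-4A-YFP, in which the epidermal ATML1 promoter drives SPCH with altered phosphorylation sites, fused to a glucocorticoid receptor domain and a yellow fluorescent protein, and it was sampled untreated (0 h) and 12 h after 100 μM dexamethasone, the ligand that lets the fusion enter the nucleus. Wild type was sampled in the same way, so dexamethasone was also given to the control line. All seedlings were 7 days past germination and had grown in shaken liquid medium with 1% sucrose. No seedlings kept for 12 h without dexamethasone were analysed here, so the hormone, elapsed time, time of day and handling cannot be told apart in either line. Only 1 transgenic line was sampled, so the transgene and anything else that sets this line's cultures apart cannot be told apart either. The libraries held 16251477 to 22944391 reads assigned to genes. Replicates 1 and 2 of every group were sequenced on 1 lane and replicates 3 and 4 on another, and the first principal component (49.5% of the variance) separated the lanes completely. SPCH, which checks the labels because transgene reads add to it, ranged from 116 to 154 normalized counts in the inducible line at 0 h and averaged 200 ± 31.6 (SD, n = 4) at 12 h, against 63.4 ± 6.26 and 65.7 ± 5.73 in wild type. Every list of marker genes (6 for leaf, 7 for root, 3 for guard cells, 3 for seed storage) was detected in full. Seed storage genes should be low in seedlings. Their sums at 0 h were 3.14 to 148 normalized counts in the inducible line (median 55.9), against 4.25 to 6.86 in wild type (median 5.18). At 12 h they were 6.86 to 44.1 against 5.11 to 44.2. Whether this spread bears on the differences between the lines was not tested. Leaf marker sums at 0 h in inducible libraries ranged from 216332 to 289305 normalized counts, against 234458 to 340465 in wild type, and root marker sums from 1849 to 2495 against 1720 to 3005, so the lines overlapped in both at this time. In whole seedlings, fewer cells of a type and less RNA per cell cannot be told apart.

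Many of the 70 genes belong to groups that plants switch on quickly and transiently. Low-oxygen genes are activated by group VII ethylene response factors, which plant cysteine oxidases mark for destruction when oxygen is present. Genes for ERF and zinc finger regulators, calmodulin-like proteins and immune receptors respond within minutes to touch, wounding or elicitors, and starvation genes are activated through the kinase SnRK1 when sugar runs short and are lowered again by sugar.

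The median gene kept 29.0% of its 0 h level at 12 h in the inducible line, against 36.5% in wild type, median log2 ratios of -1.79 and -1.45. The ratios ran from -4.66 to -1.05 in the inducible line, and wild-type ratios ran from -4.75 to -1.002, and across the 70 genes they were correlated (Pearson's r = 0.777, Spearman's rho = 0.706, a description over genes that share the same libraries). The level fell at least 4-fold for 27 genes in the inducible line and for 14 in wild type, and the fall was larger in the inducible line for 51 genes and in wild type for 19. Among all 20756 genes tested, 2.17% met the same ratio and separation of libraries in the inducible line, and 0.718% met them in wild type. The rule was thus met by more genes in the inducible line, and nothing is read from which line fell more. Averaged over the 70 genes, log2 levels in the inducible line were 8.94, 9.01, 9.27 and 8.96 in replicates 1 to 4 at 0 h and 7.17, 7.02, 7.21 and 7.11 at 12 h. In wild type the averages were 8.56, 8.62, 8.25 and 8.65 at 0 h and 6.73, 6.82, 7.07 and 6.92 at 12 h. Replicate 3 was thus the highest of the inducible line and the lowest of wild type at 0 h, and the 0 h libraries of the lines did not overlap in this average.

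**Figure D1:**
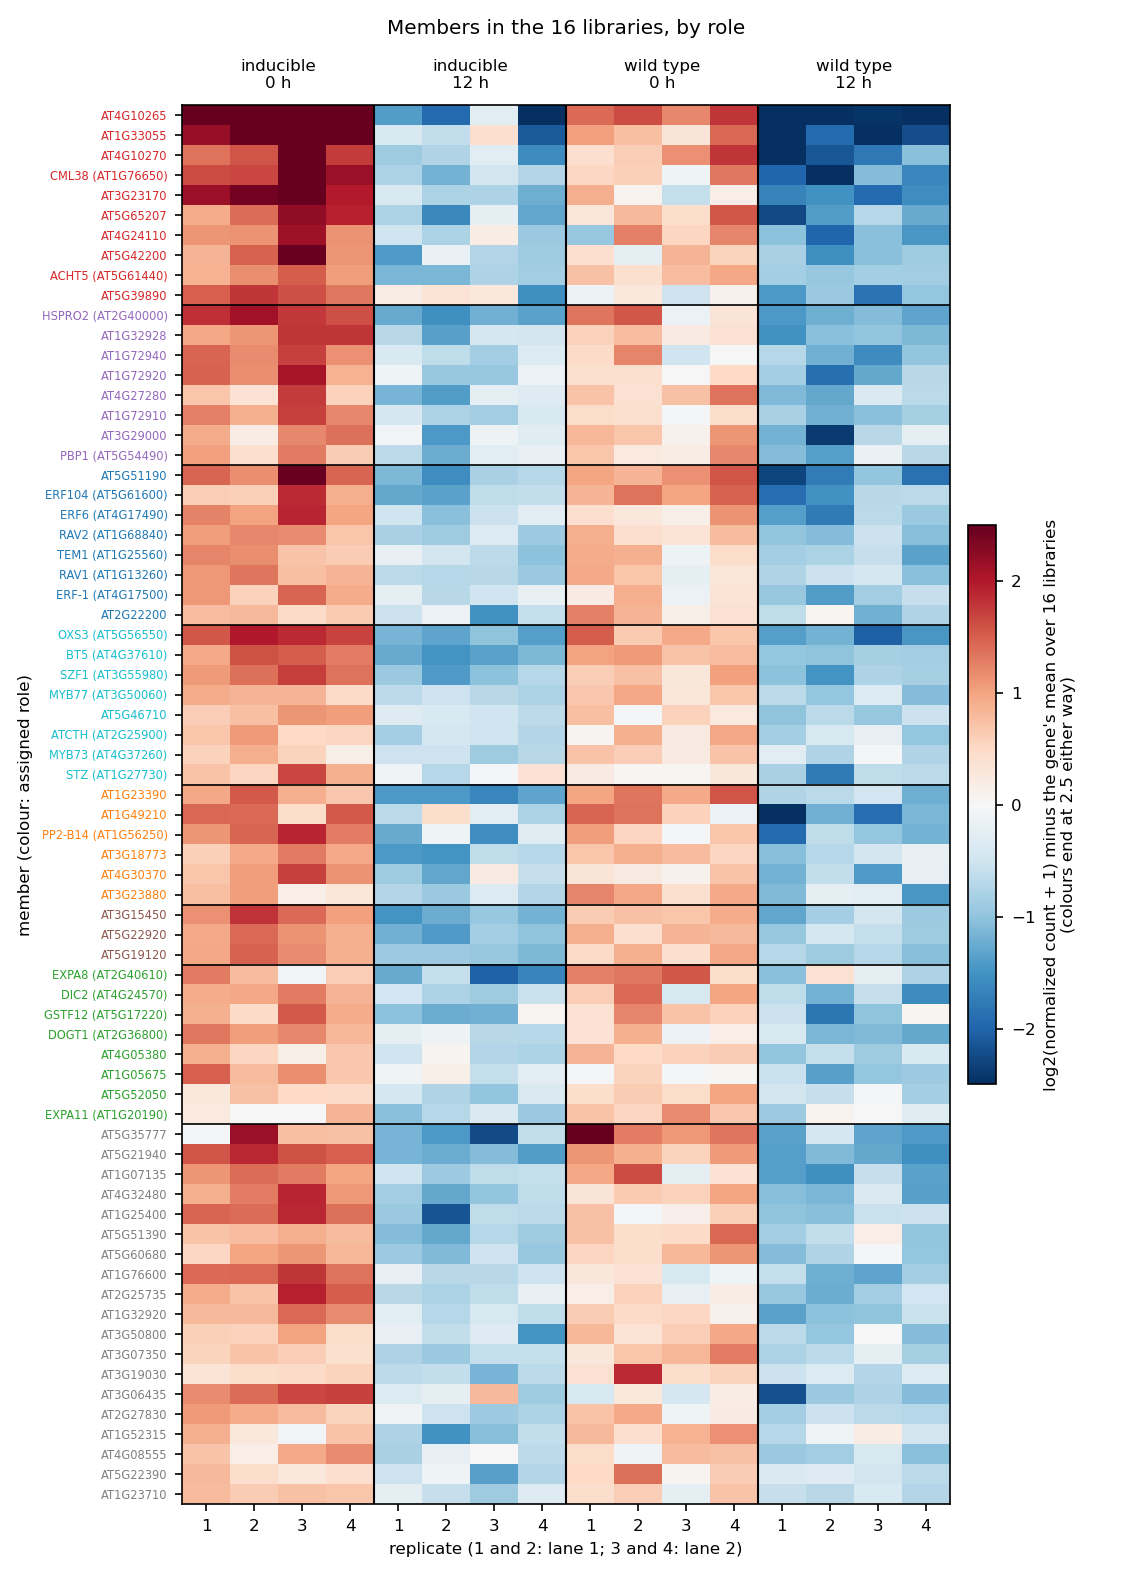
Heat map of the 70 genes (rows, ordered and coloured by role, then by size of fall) in the 16 libraries (columns, replicates 1 to 4 of each group). Colour is log2(normalized count + 1) minus the gene's mean over all 16 libraries. The 0 h columns are mostly red and the 12 h columns mostly blue, since the rule requires every 0 h library to exceed every 12 h library within a line. Several of the low-oxygen genes at the top are among the darkest, but not all of them. Colours are capped at the limit printed on the colour scale.

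Low-oxygen response genes made up 10 of the 70 and fell most, with a median of 15.6% of the 0 h level left in the inducible line, against 22.5% in wild type. The deepest fall was that of AT4G10265 (chromosome 4, 6373008 to 6373667, minus strand), annotated as a wound-responsive family protein. Its values in the inducible line were 510.4, 542, 1114 and 612 normalized counts in replicates 1 to 4 at 0 h and 26.2, 17.63, 57.5 and 8.93 at 12 h. In wild type they were 189, 218, 163 and 245 at 0 h and 5.67, 6.14, 12.1 and 6.54 at 12 h. The means were thus 25.2-fold lower at 12 h in the inducible line and 26.8-fold lower in wild type, and at 0 h every inducible library was above every wild-type library. AT4G10270, the neighbouring gene of the same family (6374734 to 6375210, plus strand, 1066 bases away), had 834, 968, 2117 and 1096 in the inducible line at 0 h and 174, 192, 269 and 109 at 12 h. In wild type it had 433, 501, 723 and 1131 at 0 h and 43.1, 73.6, 93.4 and 157 at 12 h. Its highest library was again replicate 3 of the inducible line at 0 h, and the lines overlapped at both times. Gene models on the opposite strand overlap AT4G10270 over 377 and 86 bases, and since the strand setting of the counting is not given in the sources used here its level is uncertain.

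AT1G33055, an uncharacterized gene of the low-oxygen group, held 606, 779, 1126 and 884 normalized counts in the inducible line at 0 h and 102, 86.2, 178 and 30.4 at 12 h. Its wild-type values were 271, 226, 167 and 363 at 0 h and 9.07, 33.7, 11.05 and 28.05 at 12 h. The fall was 8.56-fold in the inducible line and 12.5-fold in wild type. CML38, a calmodulin-like calcium sensor, had 680.2, 696, 1408 and 972 in the inducible line at 0 h and 126, 95.03, 158 and 131 at 12 h. Its wild-type libraries held 309.9, 329, 202 and 544 at 0 h and 54.4, 34.8, 101 and 69.2 at 12 h. At 0 h the lines did not overlap for either gene. AT3G23170, also uncharacterized, showed the widest gap between the lines at 0 h, with 1295, 1576, 1943 and 1159 in the inducible line at 0 h against 556, 315, 196 and 332 in wild type. At 12 h it had 227, 170.5, 171 and 126 in the inducible line and 91.9, 102, 75.3 and 100.0 in wild type, again with no overlap.

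AT5G39890 encodes plant cysteine oxidase 2 (PCO2), one of the oxygen-dependent enzymes that mark group VII factors. It held 925, 1136, 1001 and 825 normalized counts in the inducible line at 0 h and 372, 415, 394 and 113 at 12 h, while wild type had 302, 398, 229.7 and 353 at 0 h and 121, 172, 90.4 and 168 at 12 h. The lines were apart at 0 h, and at 12 h they overlapped because replicate 4 of the inducible line was far below its other replicates. The uncharacterized AT5G65207 had 306, 423, 751 and 626 in the inducible line at 0 h and 92.1, 51.9, 136 and 65.2 at 12 h, against 198, 283, 219 and 477 and then 32.9, 60.3, 97.4 and 66.4 in wild type, with overlap between the lines at both times. AT4G24110, the RING protein gene AT5G42200 and ACHT5, which encodes a chloroplast thioredoxin, fell 3.71-, 5.26- and 4.44-fold in the inducible line and 4.30-, 2.92- and 3.07-fold in wild type.

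Not all of the low-oxygen pathway fell. Of the 31 other tested genes on a list of 42 low-oxygen genes, 9 fell and 3 rose in the inducible line and 5 fell and 2 rose in wild type from 0 to 12 h (limma, adjusted p under 0.05), where of all genes tested 3.68% fell and 1.44% rose in the inducible line and 2.45% fell and 2.27% rose in wild type. The genes above had been removed from that remainder by the rule, so these counts say nothing about the list as a whole, and it still holds AT3G10040 and LBD41, which met the rule's values. SUS4, a sucrose synthase gene, rose from a mean of 161 to 780.2 normalized counts in the inducible line (limma, adjusted p = 0.021) and averaged 89.9 and 93.6 in wild type (adjusted p = 0.97). ADH1, the alcohol dehydrogenase gene of fermentation, had means of 571 and 1570.3 in the inducible line (adjusted p = 0.16) and of 256 and 165 in wild type (adjusted p = 0.53).

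AP2/ERF and RAV factors were 8 of the 70 genes, all with 1 exon, and kept a median of 29.3% in the inducible line, against 35.5% in wild type. AT5G51190 (ERF105), an ethylene response factor gene, had 195, 160.0, 396 and 197 normalized counts in the inducible line at 0 h and 32.0, 23.5, 40.2 and 42.9 at 12 h. Wild type had 142, 129, 158 and 213 at 0 h and 13.6, 20.5, 35.2 and 18.7 at 12 h, so the lines overlapped at both times. All 965 bases of this gene are overlapped by AT5G51180 on the other strand, which leaves its level uncertain. ERF104, ERF6 and ERF-1 fell 4.13-, 3.76- and 2.70-fold in the inducible line and 4.95-, 3.196- and 2.46-fold in wild type. ERF6 and ERF-1 lie side by side on chromosome 4, 5041 bases apart with no gene model between them. TEM1 and RAV2, which repress flowering, and RAV1 were among the most abundant: TEM1 averaged 9294 ± 1967 normalized counts in the inducible line at 0 h against 7212 ± 2192 in wild type (SD, n = 4), and 3278 ± 787 against 2639 ± 546 at 12 h. Per kilobase of transcript, wild type at 0 h ranged over the 70 genes from 29.6 normalized counts for PP2-B14 to 4100.3 for TEM1.

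Of 17 tested genes on a list of AP2/ERF factors, 6 were among the 70. Of the other 11, 4 fell in the inducible line and 1 fell in wild type by limma's adjusted p, and none rose. No WRKY factor gene was among the 70, although 7 of 12 on that list fell in the inducible line. Of these 12 genes, 2 fell and 1 rose in wild type. Over all genes tested, 3.68% fell and 1.44% rose in the inducible line, and 2.45% fell and 2.27% rose in wild type.

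The other regulators were 8 genes of several families. OXS3, which promotes tolerance to oxidative stress, had 836, 1135, 1034 and 917 normalized counts in the inducible line at 0 h and 125, 113, 139.8 and 109 at 12 h. In wild type it had 809.5, 444, 545 and 458 at 0 h and 109, 125, 68.3 and 102 at 12 h. The lines were separate at 0 h by a narrow margin and overlapped at 12 h. BT5, a BTB and TAZ domain scaffold protein, held 1027, 1605, 1522 and 1278 in the inducible line at 0 h and 221, 186, 209 and 242 at 12 h. Its wild-type libraries held 1058, 1107, 867 and 909.7 at 0 h and 272, 263, 297 and 289.8 at 12 h. At 0 h the lines overlapped, and at 12 h every wild-type library was above every inducible library. BT5 shares 151 bases with a gene model on the other strand. SZF1, a CCCH zinc finger protein of salt and immune responses, fell 5.28-fold in the inducible line and 3.25-fold in wild type. MYB73, MYB77, STZ, the PLATZ gene AT5G46710 and ATCTH fell between 2.15- and 2.73-fold in the inducible line and between 2.00- and 2.67-fold in wild type, and AT5G46710 shares 525 bases with a gene model on the other strand.

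Genes of immunity and calcium signalling were 8 of the 70, with medians of 26.4% and 33.0% left. HSPRO2, an Arabidopsis relative of a sugar beet nematode resistance gene, had 4074, 4949, 3937 and 3492 normalized counts in the inducible line at 0 h and 479.7, 398, 498 and 453 at 12 h. Wild type had 2925, 3366, 1034 and 1442 at 0 h and 425, 493, 545 and 462 at 12 h. In wild type at 0 h the lane 2 libraries, replicates 3 and 4, were below the lane 1 libraries, and at 12 h the lines overlapped. The Toll-interleukin receptor domain genes AT1G72910, AT1G72920 and AT1G72940 lie within 1 stretch of chromosome 1, from 27435306 to 27443859, all on the plus strand. They fell 3.73-, 3.84- and 3.83-fold in the inducible line and 2.47-, 2.74- and 2.89-fold in wild type. AT1G32928, annotated as an Avr9/Cf-9 rapidly elicited protein, and its uncharacterized neighbour AT1G32920 fell 4.46- and 2.98-fold in the inducible line and 3.17- and 2.65-fold in wild type. The EF-hand genes AT4G27280 and AT3G29000 and PBP1, a calcium-dependent partner of the kinase PINOID, fell 2.64- to 3.17-fold in the inducible line and 2.66- to 3.23-fold in wild type.

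Sugar starvation and darkness genes were only 3 of the 70. AT3G15450, an aluminium-induced protein gene that is raised in starved or darkened plants, had 5258, 8379, 6349.9 and 4880.1 normalized counts in the inducible line at 0 h and 850.0, 1011, 1240.3 and 1046 at 12 h. Wild type had 3729, 3949.8, 3877 and 4518 at 0 h and 972, 1329, 1739.5 and 1265 at 12 h, so the inducible line was higher without overlap at 0 h and overlapped wild type at 12 h. AT5G22920, a RING zinc finger gene, and AT5G19120, an aspartyl protease gene, fell 4.64- and 4.34-fold in the inducible line and 2.76- and 2.92-fold in wild type. The 3 genes all fell more in the inducible line, as did 51 of the 70. Of 22 other tested genes on the starvation list, which include 2 left out by name (PHI-1 and AT2G20670), 9 fell and 1 rose in the inducible line and 4 fell and 1 rose in wild type. The shares over all genes tested were 3.68% falling and 1.44% rising in the inducible line, and 2.45% and 2.27% in wild type.

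Ubiquitin ligase and F-box genes were 6 of the 70. The Kelch repeat F-box gene AT1G23390 had 1414, 2099.6, 1363 and 1161 normalized counts in the inducible line at 0 h and 267, 267, 233 and 289 at 12 h. Its wild-type values were 1437, 1845, 1392 and 2153 at 0 h and 431, 454, 523 and 312 at 12 h. The lines overlapped at 0 h, and at 12 h wild type was higher without overlap. The RING gene AT1G49210 fell further in wild type, from 35.0 ± 16.4 to 5.23 ± 2.52, than in the inducible line, from 43.8 ± 13.0 to 14.8 ± 6.73 (SD, n = 4). PP2-B14, an F-box protein gene, AT3G18773 (overlapped by an opposite gene model over 845 bases), AT4G30370 (IDF1), whose product degrades the iron transporter IRT1, and AT3G23880 fell 2.43- to 4.67-fold in the inducible line and 2.24- to 3.49-fold in wild type.

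Cell wall, transport and enzyme genes were 8 of the 70 and kept medians of 38.1% in the inducible line, against 39.5% in wild type. They included the wall-loosening expansins EXPA8 and EXPA11, the mitochondrial dicarboxylate carrier DIC2, GSTF12, which is needed for anthocyanin transport, DOGT1, which glucosylates brassinosteroids, and AT5G52050 (DTX50), an exporter of abscisic acid. EXPA8 fell 4.19-fold in the inducible line and 2.89-fold in wild type, while EXPA11 fell 2.08- and 2.04-fold. Of 14 other tested genes on the wall-loosening list, 3 fell in the inducible line and 1 fell in wild type, where 3.68% and 2.45% of all genes tested fell.

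The remaining 19 genes have no role assigned here. AT5G21940 had 5132, 6398, 5229 and 4880.1 normalized counts in the inducible line at 0 h and 773, 735, 818 and 661 at 12 h, against 3727, 3207, 2559 and 3639 and then 667, 802, 708 and 599 in wild type. It was higher in the inducible line without overlap at 0 h and overlapped wild type at 12 h. AT5G35777, the only pseudogene among the 70, had 43.0, 201, 75.8 and 74.6 in the inducible line and 280.1, 109.6, 95.1 and 114 in wild type at 0 h, with single high libraries in both. At 12 h it had 19.4, 15.7, 8.62 and 28.6 against 17.01, 32.7, 17.1 and 15.9. AT1G25400 had 618, 599, 839.9 and 588 in the inducible line at 0 h and 118, 49.96, 146 and 141 at 12 h, against 377, 222, 246 and 339.7 and then 112, 107, 154 and 156 in wild type. AT1G76600 had 726, 733, 947 and 702 in the inducible line at 0 h and 236, 168, 168 and 190.3 at 12 h, against 329, 352, 206 and 252 and then 179, 116, 108 and 148 in wild type. For both genes the lines were apart at 0 h and overlapped at 12 h.

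**Figure D2:**
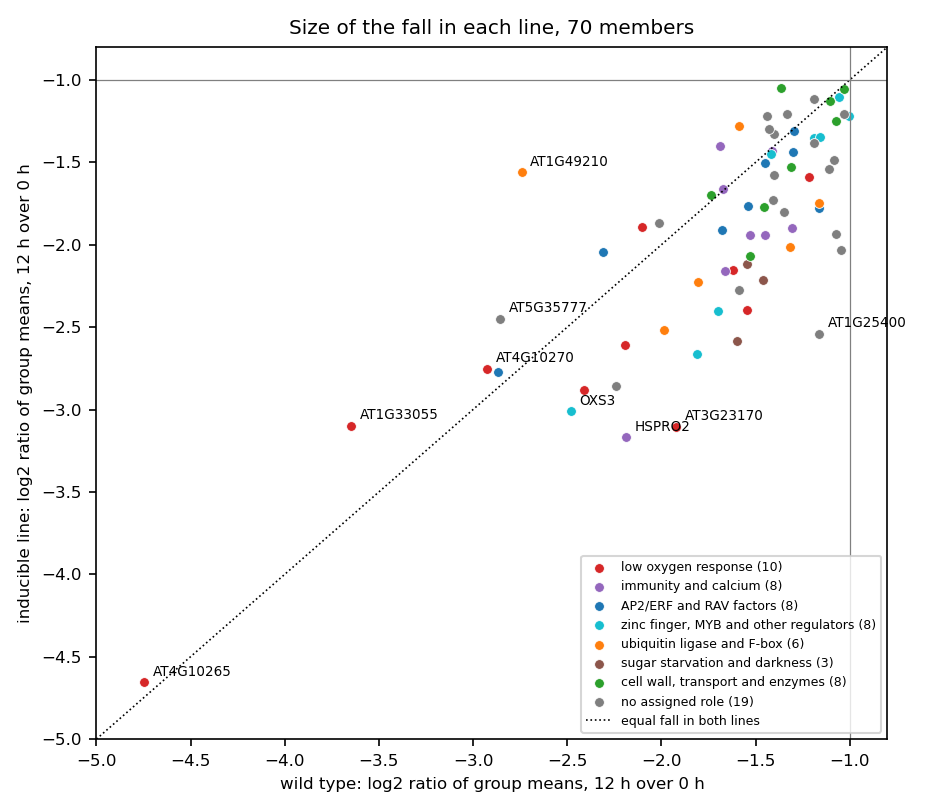
Log2 ratio of group means, 12 h over 0 h, in wild type (x axis) and in the inducible line (y axis) for the 70 genes, coloured by role. Grey lines mark the rule's limit of -1 and the dotted line an equal fall, and 51 genes lie below the dotted line, where the inducible line fell more.

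The limit of the rule ran through a continuous range of values. Just inside it were MYB73 (ratios of 0.430 in the inducible line, 0.499 in wild type), EXPA11 (0.481 and 0.490) and AT1G23710 (0.433 and 0.490). Just outside were AT3G10930 (0.328 and 0.501), AT1G22190 (0.502 and 0.476) and AT4G29780 (0.331 and 0.504). A limit of 0.4 would have kept 42 genes and 0.6 would have kept 128. Outside the 70, the genes most like their average over the 16 libraries were AT3G10040 (Pearson's r = 0.987), the GRAS factor gene AT3G46600 (0.978), the RING gene RHA1B (0.961), PHI-1 (0.958) and LBD41 (0.951). The members' own correlations with that average ran from 0.678 to 0.988, with a median of 0.913. High values were largely set in advance, since the rule puts 12 h below 0 h for each member and each member is part of the average. These values describe libraries that share lanes and groups. Replicates varied more for the 70 than over all genes averaging at least 20 normalized counts in the same group. The median coefficient of variation of the 70 was 21.2% and 21.2% in the inducible line at 0 h and 12 h and 25.12% and 25.05% in wild type. Over all those genes it was 13.9%, 14.3%, 19.8% and 15.4%. The 70 had to average 20 only at 0 h, and AT1G49210, for example, averaged 5.23 in wild type at 12 h. The 12 h comparison was therefore not matched on level.

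Gene models of the 70 were short and mostly without introns. In the longest transcript of the TAIR10.1 annotation, 49 of the 70 (70%) had 1 exon, against 3555 of the 20640 tested genes with a gene model (17.2%), and the median transcript was 1309 against 1735 bases long. The genes lay on all chromosomes, 21, 7, 11, 13 and 18 on chromosomes 1 to 5. A total of 17 overlapped another gene model. The promoter window, from 250 bases before to 50 after the start of each gene, was searched on both strands for 14 motifs. The W-box core bound by WRKY factors (TTGACC or TTGACT) was present for 32 of the 70 genes (45.7%), against 32.8% of tested genes, and the sugar-response element TATCCA for 22 (31.4%), against 16.3%. The abscisic acid response core (ACGTG, which is also part of the G-box) stood at 37.1% against 27.8% and the HUD box (CACATG), a site of PIF and other bHLH factors, at 20% against 12.9%. The G-box (CACGTG) at 7.14% against 8.52%, the GCC box of ERF factors (GCCGCC) at 2.86% against 2.68% and the DRE core (ACCGAC or GCCGAC) at 12.9% against 9.57% were close to the share of all genes. The TATA box (TATAAA) was found for 57.1% against 51.6%, the CAMTA site (CGCGTT or CGCGTG) for 10% against 6.69%, the evening element (AAATATCT) for 10% against 5.84% and the CCA1 site (AAAAATCT) for 5.71% against 8.03%. The auxin response element (TGTCTC or TGTCGG) at 12.9% against 18.6%, the bZIP site ACTCAT at 8.57% against 14.0% and the telo box (AAACCCTA), frequent in promoters of ribosomal genes, at 1.43% against 5.57% were less frequent among the 70. Some shares depended on the window. In the 100 bases before the start, the evening element stood at 1.43% against 2.05%, the reverse order, and the telo box at 1.43% against 1.61%. The W-box (21.4% against 13.4%) and TATCCA (12.9% against 5.70%) remained more frequent among the 70 there. Also more frequent there were the CAMTA site (7.14% against 2.64%), the DRE core (7.14% against 3.64%), the HUD box (8.57% against 4.53%) and ACGTG (17.1% against 13.0%). The TATA box and GCC box were ahead as well, while the G-box, CCA1 site, ACTCAT and auxin response element were less frequent. No test was made of these shares, and a match is a description of letters, not a bound site.

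**Figure D3:**
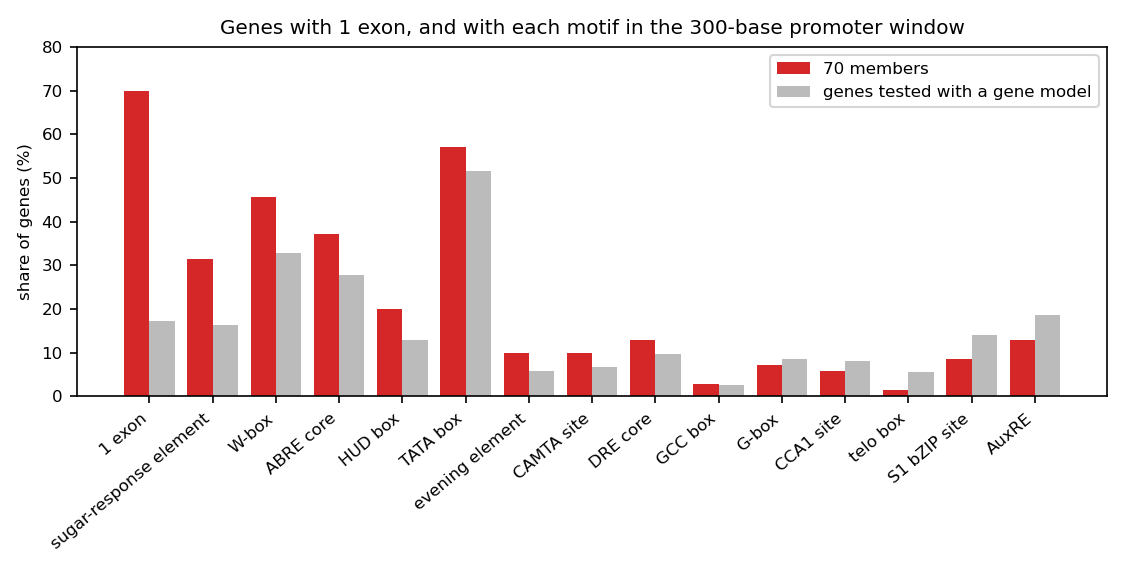
Share in percent of the 70 genes (red) and of the tested genes with a gene model (grey) that have 1 exon or hold each of 14 motifs in the 300-base promoter window, ordered by the difference. The 1-exon share is 70% against 17.2%, and the sugar-response element and the W-box lead the motifs.

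The 4 promoters below are shown because they hold the most W-box and TATCCA matches among the genes with a role in low oxygen, regulation or starvation described above. Each is the 250 bases before the annotated start in TAIR10.1 (RefSeq), 5′ to 3′ on the gene's strand, with the matches on either strand in capitals.
ACHT5, chr5:24707195-24707444, plus strand: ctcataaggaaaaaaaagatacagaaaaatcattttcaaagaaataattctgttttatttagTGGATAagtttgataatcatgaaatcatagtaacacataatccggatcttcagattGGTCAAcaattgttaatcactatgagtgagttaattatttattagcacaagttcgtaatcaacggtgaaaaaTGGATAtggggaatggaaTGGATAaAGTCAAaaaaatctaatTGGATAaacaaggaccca
SZF1, chr3:20775970-20776219, plus strand: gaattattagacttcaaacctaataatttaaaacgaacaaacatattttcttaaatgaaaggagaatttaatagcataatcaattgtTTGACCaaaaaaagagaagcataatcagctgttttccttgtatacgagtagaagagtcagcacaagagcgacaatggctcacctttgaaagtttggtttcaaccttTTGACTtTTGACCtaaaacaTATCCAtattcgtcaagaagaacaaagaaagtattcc
BT5, chr4:17672354-17672603, minus strand: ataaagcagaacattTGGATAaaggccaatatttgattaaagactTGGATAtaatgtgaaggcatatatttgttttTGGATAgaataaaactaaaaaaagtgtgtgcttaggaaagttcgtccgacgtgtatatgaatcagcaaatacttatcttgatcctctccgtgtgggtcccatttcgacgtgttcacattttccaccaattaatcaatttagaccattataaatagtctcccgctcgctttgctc
AT5G19120, chr5:6414238-6414487, plus strand: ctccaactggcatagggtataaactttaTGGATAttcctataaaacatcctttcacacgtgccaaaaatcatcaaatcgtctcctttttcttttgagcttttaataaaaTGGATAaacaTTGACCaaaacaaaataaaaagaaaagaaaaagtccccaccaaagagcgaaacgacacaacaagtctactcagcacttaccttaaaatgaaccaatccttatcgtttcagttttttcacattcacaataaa
ACHT5 held 4 TATCCA and 2 W-box matches, SZF1 3 W-box matches and 1 TATCCA, BT5 3 TATCCA matches and AT5G19120 2 TATCCA matches and 1 W-box. Each of these genes kept less of its 0 h level in the inducible line than in wild type, as did most of the 70. The rule chose the genes by these levels, and no link of the fall to the motifs was tested.

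The lines were compared before dexamethasone, at 0 h, a difference that the rule does not compare, although the same 0 h values enter it for each line. Of the 70 genes, 13 were higher in the inducible line and 0 were lower (limma on log2(normalized count + 1), 2-sided, Benjamini-Hochberg adjusted p under 0.05 over 20756 genes), where 1.42% of all genes tested were called higher and 0.573% lower. The difference was positive for 56 of the 70, against 50.3% of all genes tested, with a median of 0.47 on the log2 scale against 0.002. Unadjusted p-values were under 0.05 for 37 of the 70 and for 3901 of the 20756 genes tested. In 22 of the 70 every inducible library lay above every wild-type library, where this held for 4.56% of all genes tested, and the reverse held for 0 of the 70 and for 3.97% of all genes. A higher 0 h level makes a line's part of the rule easier to meet. That part, the ratio and separation, was met by 451 of all genes tested in the inducible line and by 149 in wild type. The sign and counts over the 70 are thus a description that is not independent of how the genes were chosen. The low-oxygen genes stood highest, with all 10 positive, a median of 1.27 and 4 called. All 8 immunity and calcium genes were positive (median 0.93, 2 called), while the 8 wall, transport and enzyme genes were split, 4 positive and 4 negative (median 0.08, 1 called).

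The largest difference called at 0 h was that of AT3G23170, whose inducible libraries averaged 1493 ± 346 normalized counts against 349.5 ± 150.2 in wild type (SD, n = 4), a log2 difference of 2.16 (SE 0.25, limma, adjusted p = 0.00085). AT1G76600 differed by 1.47 (SE 0.19, limma, adjusted p = 0.0016) and AT5G21940 by 0.73 (SE 0.13, limma, adjusted p = 0.010). AT5G21940 shares 157 bases with a gene model on the other strand. AT1G72910, a Toll-interleukin receptor domain gene with 601, 466, 816 and 578 in the inducible line against 343, 329.8, 245 and 345 in wild type, differed by 0.94 (SE 0.18, limma, adjusted p = 0.011). At 12 h it had 186, 144, 136 and 193 in the inducible line and overlapped wild type, which had 143, 108, 121 and 139. These 4 genes stayed past the threshold when any 1 library was left out. PCO2 (AT5G39890, 1.62), AT3G06435 (1.58), AT4G10265 (1.70), CML38 (1.46), AT1G25400 (1.17), AT2G25735 (1.098), AT1G32928 (0.92), AT1G05675 (0.91) and OXS3 (0.83) were also called, with limma's adjusted p between 0.024 and 0.046, and each was lost when some single library was left out. AT3G06435 shares 607 bases with a gene model on the other strand. No value over 0.05 shows that the other genes were alike in the lines: HSPRO2 differed by 1.06 (SE 0.27, limma, adjusted p = 0.054) without overlap of its libraries.

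The count at 0 h moved with the lane. With the replicate number as a block, 28 of the 70 were called higher, where the block called 5.87% of all genes higher, and with a term for the lane 30, against 6.43% of all genes. The block lost none of the 13 and added HSPRO2, RAV1, STZ, AT1G32920, AT1G72920, AT1G72940, DOGT1, AT3G15450, SZF1, ERF6, AT4G32480, BT5, AT5G19120, AT5G42200 and ACHT5, with limma's adjusted p from 0.0081 to 0.047 under the block. Lane 1 alone, replicates 1 and 2, called 0 of the 70 and 1 gene in the whole table (0.00482%), and lane 2 alone called 20 of the 70, against 4.6% of all genes. The difference of AT3G23170 was 1.77 in lane 1 and 2.55 in lane 2, that of AT1G76600 1.098 and 1.84, that of AT5G21940 0.73 and 0.73 and that of AT1G72910 0.65 and 1.24. DESeq2 on the recovered reads called 24, against 3.39% of all genes, and edgeR 15, against 1.35%. With 1 library left out, 120 to 1803 genes of the whole table were called at 0 h, in either direction, against 414 with all libraries. The share of all genes in each of the refits below is not given here, so their counts are not set against a background. Without replicate 3 or replicate 4 of the inducible line at 0 h, or replicate 3 of wild type at 0 h, 4 were called, without replicate 4 of wild type at 0 h 6, without replicate 1 of the inducible line at 0 h 7, without replicate 1 of the inducible line or replicate 4 of wild type at 12 h 8, and without replicate 1 of wild type at 0 h 19; the fit of the 0 h groups alone called 8.

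**Figure D4:**
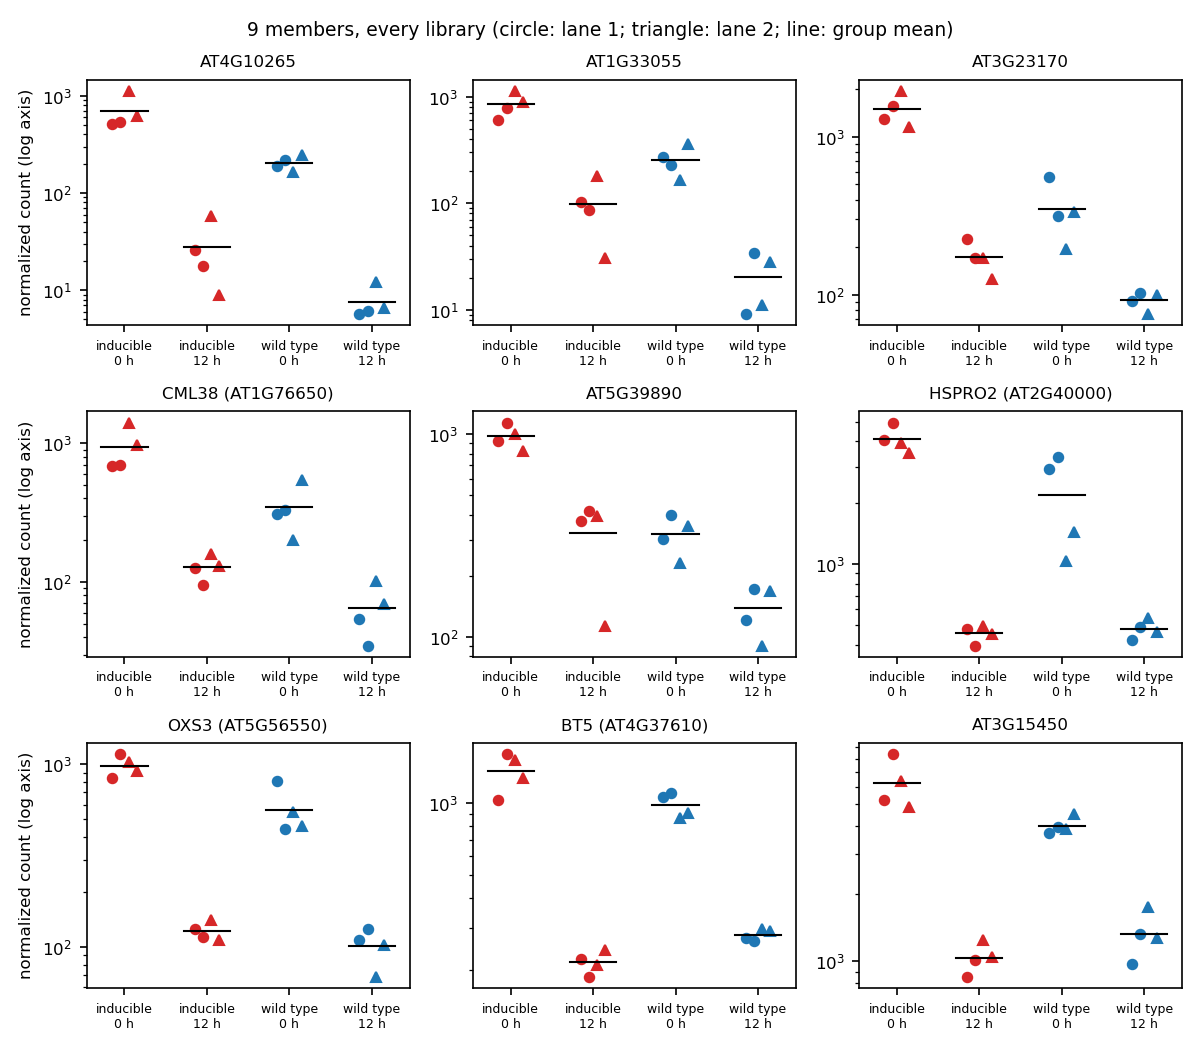
Normalized counts (log axis) of 9 of the genes in each library of the 4 groups, with circles for lane 1, triangles for lane 2 and a line at the group mean, inducible line in red and wild type in blue. In AT4G10265, AT1G33055, AT3G23170, CML38 and AT5G39890 every red 0 h library lies above every blue 0 h library.

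At 12 h fewer of the 70 genes were called between the lines. Root marker sums, which overlapped at 0 h, were then 1521 to 2085 normalized counts in the inducible line and 2395 to 2657 in wild type, without overlap, and their part in the differences at 12 h was not tested. Leaf marker sums, 197572 to 275260 against 217803 to 293952, overlapped. Unadjusted p-values were under 0.05 for 22 of the 70 and for 2855 of the 20756 genes tested. Of the 70, 0 were called lower in the inducible line, against 2.2% of all genes. Only AT1G33055, in the low-oxygen group, was called higher, where 1.2% of all genes tested were called higher. Its 99.1 ± 61.0 normalized counts against 20.5 ± 12.3 (SD, n = 4) gave a log2 difference of 2.17 (SE 0.48, limma, adjusted p = 0.018), although replicate 4 of the inducible line, at 30.4, lay below replicate 2 of wild type, at 33.7. The call was lost without replicate 1, 2 or 3 of the inducible line or replicate 1 or 3 of wild type at 12 h (adjusted p up to 0.068). A gene model on the same strand, AT1G33050, overlaps AT1G33055 over 225 bases. Next came AT4G10265 (1.49, limma, adjusted p = 0.054), AT1G23390 (-0.68, limma, adjusted p = 0.055) and AT3G23170 (0.88, limma, adjusted p = 0.069). Over the 70 genes, 46 were higher and 24 lower in the inducible line, with a median of 0.22. Of all genes tested, 52.2% were higher, with a median of 0.011. No overlap at 12 h was seen for 3 genes with the inducible line higher and 2 with wild type higher. This held for 4.29% and 5.35% of all genes tested, so the 70 were near the background by this measure alone.

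With the replicate block or the lane term, 8 of the 70 were called higher and 1 lower at 12 h, where the block called 2.52% of all genes higher and 3.9% lower and the lane term 2.63% and 4.19%. Under both, CML38, AT4G10265, AT3G23170, STZ, AT1G05675 and AT1G49210 joined AT1G33055 above, and AT1G23390 was the gene below. The block also added AT3G06435. DESeq2 called 7 higher and 1 lower, against 2.06% and 3.33% of all genes, and edgeR 2 higher, against 1.15%. Lane 1 alone called 5 higher, against 0.328% of all genes, and lane 2 alone 0, against 0.65%. Leaving out replicate 4 of the inducible line at 12 h gave 4 higher. With 1 library left out, 428 to 800 genes of the whole table were called at 12 h, in either direction.

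**Figure D5:**
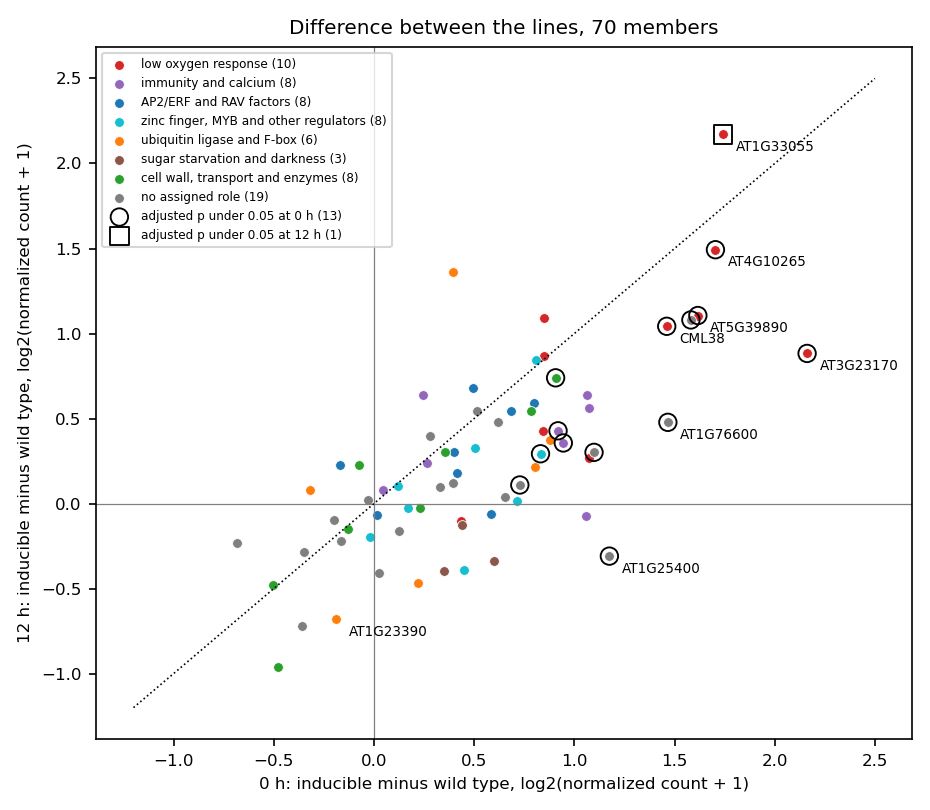
Difference between the lines, inducible minus wild type on the log2(normalized count + 1) scale, at 0 h (x axis) and at 12 h (y axis) for the 70 genes, coloured by role, with circles around the 13 called at 0 h and a square around the 1 called at 12 h. Most genes lie right of 0, and all 13 circled ones lie below the dotted line of equal difference.

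The low-oxygen list outside the 70 also differed between the lines. Of its 31 other tested genes, 10 were higher in the inducible line at 0 h and 19 at 12 h, and 0 were lower at either time, where 1.42% of all genes tested were higher at 0 h and 1.2% at 12 h. These 31 include AT3G10040 and LBD41, which met the rule's values and were left out by name. For the 10 low-oxygen genes among the 70 the counts were 4 and 1. The averages of log2 levels over those 10 in the inducible line were 8.86, 9.12, 9.82 and 9.14 at 0 h and 6.57, 6.45, 7.05 and 5.92 at 12 h. In wild type they were 7.78, 7.94, 7.72 and 8.41 at 0 h and 5.31, 5.48, 5.69 and 5.81 at 12 h, so the lines did not overlap at either time. The WRKY list, which held none of the 70, had 8 of 12 genes higher in the inducible line at 0 h and 1 at 12 h, and the touch and wound list had 8 of 26 genes outside the 70 higher at 0 h and 2 at 12 h, against the same 1.42% and 1.2% of all genes.

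The interaction is the change over time in the inducible line minus that in wild type. It is built from the ratios that chose the genes. Of all genes tested, 451 met the rule's ratio and separation in the inducible line but 149 in wild type. Nothing is therefore read from the interaction's sign, or from the counts called, over the 70. It was called for 0 of the 70 genes by limma and by edgeR, where limma called 0.414% of all genes lower and 0.0964% higher and edgeR 0.419% lower and 0.0964% higher. An unadjusted p under 0.05 was found for 15 of the 70 and for 2400 of the 20756 genes tested. The smallest p-values were those of BT5 (AT4G37610, -0.84, SE 0.19, limma, adjusted p = 0.064), AT1G25400 (-1.48, SE 0.40, limma, adjusted p = 0.12), AT3G15450 (-0.94, SE 0.25, limma, adjusted p = 0.12) and AT1G76600 (-0.99, SE 0.27, limma, adjusted p = 0.13). With the replicate block these 4 genes were called lower, where the block called 1.81% of all genes lower, and with the lane term AT3G23170 and AT5G21940 were called as well, 6 in all, where it called 1.9%. DESeq2 called 4 lower, against 1.3% of all genes, and lane 2 alone 2, against 0.429%. BT5 was called without replicate 1 of the inducible line at 0 h (limma, adjusted p = 0.027) and, with AT3G23170, without replicate 1 of wild type at 0 h (limma, adjusted p = 0.037). With 1 library left out, the interaction called 53 to 454 genes of the whole table, in either direction.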

How the data were processed

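Per the file's values, the deposited table held a normalized signal, gene-level read counts scaled by the authors with a size factor for each library: 100% of the values of each column were whole multiples of 1 step, within 0.001 read. Tools named without versions in the submitters' processing notes are HTSeq, DESeq2, SAMtools and TopHat, with the build TAIR10; the strand setting is not given in the sources used here, so overlapping genes are uncertain. Genes reaching 10 normalized counts in 4 or more libraries (20756) were fitted with limma 3.58.1 (R 4.3.3) on log2(value + 1), with trend and robust moderation, all 16 libraries in 1 fit, and tested 2-sided with a Benjamini-Hochberg threshold of 0.05. The pseudocount of 1 understates changes of low genes. edgeR 4.0.16 and DESeq2 1.42.0 were run on the recovered reads as alternatives, with a replicate block, a lane term, each lane, other pseudocounts, no filter and each library left out. Procedures were tested on simulated data without a lane effect, so that check does not cover the lane difference found here.

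The labels do not say that replicates were separate cultures, so p-values may measure technical spread. Same-numbered libraries of different groups correlated in their deviations (all 24 pairs over 0.1, from 0.521 to 0.718), so the numbers meet the criterion for pairing. The main fit has no block, and the fit with the replicate block is given where it changes a call. Other libraries of the same lane correlated alike (0.533 to 0.765) and only 2 of 16 libraries correlated best with their own number, so number and lane were not told apart by this check. A count of 0 allows a share of up to 1.85e-05% of a library (3 reads), for counting error only. RefSeq TAIR10.1 covered 32835 of 33602 loci and all 70 members, and positions count from 1.

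The members, gene lists, roles and motifs were chosen with earlier results of these data known. Values in every library are given for the 12 deepest falls, the 4 smallest p-values of the interaction and the 4 smallest adjusted p-values between the lines at each time; other genes called or named with tests were chosen after their values were seen. Exact permutation tests of single genes are not given, since those genes were chosen partly for the same differences. Likeness was Pearson's correlation over 16 libraries. Of the 18 lists, those that hold none of the 70 are not described beyond the markers and the WRKY list.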

Additional observations from a re-analysis of the deposited data

Results flagged for a closer look

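Of 88 groups of 4 libraries examined (22 genes in 4 groups), 10 held a library far from the others by Dixon's criterion for 4 values, which chance alone meets in about 1 group in 20. Replicate 3 of the inducible line at 0 h was the high one in 4 of them: AT4G10265 at 1114 normalized counts (next 612), AT5G51190 at 396 (next 197), AT1G25400 at 839.9 (next 618) and AT1G76600 at 947 (next 733). The low-oxygen genes' average was also highest in that library, at 9.82 on the log2 scale against 8.86 to 9.14 in the other replicates. Whether the library's handling or its plants differed was not tested. Replicate 3 of wild type was high for AT4G10265 at 12 h, at 12.1 (next 6.54), and low for AT1G72910 at 0 h, at 245 (next 329.8). AT5G35777 was high in wild type in replicate 1 at 0 h, at 280.1 (next 114), and in replicate 2 at 12 h, at 32.7 (next 17.1). AT5G39890 was low in replicate 4 of the inducible line at 12 h, at 113 (next 372), and AT1G05675 was high in replicate 2 of wild type at 0 h, at 300.5 (next 207).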

How the results depend on the processing

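Counts of the 70 genes called depended on how the lanes were treated. At 0 h, 13 were higher, with 8 without the low-count filter, 24 by DESeq2, 28 with the replicate block, 30 with the lane term, 0 in lane 1, 20 in lane 2, 8 with the 0 h groups alone and 4 to 19 when 1 library was left out; 0 were lower under every setting run. At 12 h, 1 was higher, with 2 by edgeR, 7 by DESeq2, 8 with the block, 8 with the lane term, 5 in lane 1, 0 in lane 2 and 0 to 4 with 1 library left out; 0 were lower, with 1 by DESeq2, the block, the lane term and the 12 h groups alone, and 0 to 1 with 1 library left out. In the interaction, 0 were lower, with 4 by DESeq2, 4 with the block, 6 with the lane term, 2 in lane 2 and 0 to 2 with 1 library left out.

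Over the whole table, the interaction called 106 genes, with 388 by DESeq2, 518 with the block, 586 with the lane term, 3 in lane 1 and 53 to 454 with 1 library left out. At 12 h 706 were called between the lines, with 1120 by DESeq2, 1332 with the block, 1414 with the lane term, 175 in lane 1, 437 in lane 2 and 428 to 800 with 1 library left out. At 0 h 414 were called, with 1360, 2351 and 2641 in the same order, 1 in lane 1, 1846 in lane 2, 138 with the 0 h groups alone and 120 to 1803 with 1 library left out. Over time, the inducible line gave 1063, with 1843 with the block, 1921 with the lane term, 367 in lane 1 and 746 to 1175 with 1 library left out. Wild type gave 980, with 1808 by DESeq2, 2751 with the block, 3014 with the lane term, 187 in lane 1, 315 with its groups alone and 476 to 1889 with 1 library left out. The cause of these shifts was not tested; lanes alone and smaller fits use fewer libraries. No fit of compared groups alone exists for the interaction, which needs all groups.

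The rule gave 70 genes, 42 at a ratio of 0.4, 128 at 0.6, 126 in lane 1 alone, 71 in lane 2 alone (56 of them among the 70) and 70 to 86 with 1 library left out. The median log2 ratio in wild type was -1.45, with -1.69 in lane 1, -1.30 in lane 2 and -1.58 to -1.44 with 1 library left out. No direction reversed. The block removed no call among the 70 and added 15 at 0 h, 8 at 12 h and 4 in the interaction, all named in the report. Counting error limits most the genes with few reads.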
